A study of Mus musculus with 3 samples.

Results

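The AP-1 transcription factor genes Fos, Fosb, Fosl1, Fosl2, Jun, Junb, Jund, Atf3 and Maff were chosen by symbol, with earlier results of these data known. Fos is the gene that the study names in its title. All 9 were measured, out of 19938 genes with a symbol of their own on the array, and each had 1 probe set (the group of probes that reads a gene). Expression was profiled on Affymetrix MoGene-1_0-st-v1 arrays in sarcoma cells of mice in which EWS/ATF1 can be induced with doxycycline. This oncogenic fusion of EWSR1, an RNA-binding protein, with the CREB-family factor ATF1 occurs in clear cell sarcoma of humans. Each of 3 groups has 1 array, and all RNA came from soft tissue sarcoma on a mixed C57/BL6, 129 and ICR background. By the labels, the array called tumor here holds RNA of 1 resected tumor, whose host mouse had received doxycycline over 3 months, the array called high doxycycline carries RNA of tumor cells in culture after 24 h with 0.2 microg/ml doxycycline, and the array called control carries RNA of tumor cells in culture after 24 h with 0 microg/ml. The sample descriptions give both cultures the number 1297 and the tumor the number 1281, and do not say what these numbers stand for. The labels used here do not name the promoter or cell type that drives the transgene, nor whether the probe sets detect it.

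AP-1 is a dimer of basic leucine zipper proteins. Fos-family proteins (Fos, Fosb and the Fos-related antigens encoded by Fosl1 and Fosl2) form dimers with a Jun-family partner (Jun, Junb or Jund), while Jun proteins also pair with each other, and the dimers bind the sequence TGACTCA. Atf3 encodes a stress-induced member of the ATF/CREB family that pairs with Jun proteins, and Maff encodes a small Maf protein, which has a zipper but no activation domain of its own. Fos, Jun, Junb and Atf3 are known as immediate early genes, whose transcripts appear soon after growth factor, stress or cAMP signals and decay quickly. Factors of the CREB family, ATF1 among them, bind the cAMP response element TGACGTCA, of which TGACG is the core.

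Promoter sequence is shown because the fusion carries a CREB-family factor and the core element is found upstream of some of these genes and not of others. RefSeq sequences (GRCm38.p6) were at hand for 8 of the 9 genes, with 10 start sites in all, and the 250 bases before each start were searched on both strands. TGACG was found upstream of 5 genes (Fos, Fosb, Junb, Atf3 and Maff) and not upstream of 3 (Jun, Fosl2 and Jund). Among all 32851 listed promoters, 17.8% hold TGACG within the same window, and by gene the share is 19.8%. The full TGACGTCA was found only upstream of the second listed start of Maff and is held by 1.55% of promoters, and these hits include the core. Maff has 3 listed starts and the other genes 1 each, which gives Maff more sequence to match. No window of the 8 genes held TGACTCA (4.46% of promoters) on either strand. TGACATCA, an 8-base relative of both elements that does not contain the core, was found upstream of Jun and of the third listed start of Maff (2.93% of promoters). A match describes letters in these windows and does not show binding. The sequences below run 5′ to 3′ on the strand of the gene, and capitals mark the matches.
Fos, 250 bases upstream, chr12:85473640-85473889, plus strand, with TGACG from base -129 and base -66 counted from the start: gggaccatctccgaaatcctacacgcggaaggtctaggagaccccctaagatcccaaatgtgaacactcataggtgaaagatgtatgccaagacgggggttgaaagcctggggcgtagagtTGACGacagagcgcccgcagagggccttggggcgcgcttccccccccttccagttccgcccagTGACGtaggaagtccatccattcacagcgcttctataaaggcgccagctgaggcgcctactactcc
Maff, 250 bases upstream of the second listed start, chr15:79347270-79347519, plus strand, with TGACGTCA from base -29: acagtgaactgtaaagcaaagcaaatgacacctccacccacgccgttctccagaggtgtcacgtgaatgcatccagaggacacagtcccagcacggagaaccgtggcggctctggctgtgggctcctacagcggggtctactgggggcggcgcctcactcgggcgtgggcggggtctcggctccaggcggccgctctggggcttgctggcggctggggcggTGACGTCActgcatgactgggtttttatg
Jun, 250 bases upstream, chr4:95052223-95052472, minus strand, with TGACATCA from base -45: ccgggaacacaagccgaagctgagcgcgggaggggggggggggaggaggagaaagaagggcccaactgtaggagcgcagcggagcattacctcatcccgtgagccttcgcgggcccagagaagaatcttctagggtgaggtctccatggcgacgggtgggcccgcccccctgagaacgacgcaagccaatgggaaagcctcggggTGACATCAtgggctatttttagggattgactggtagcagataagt
Fosb, 41 bases around the TGACG at base -60, chr7:19310083-19310123, minus strand: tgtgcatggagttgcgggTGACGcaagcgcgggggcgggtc
Junb, 41 bases around the TGACG at base -106, chr8:84978832-84978872, minus strand: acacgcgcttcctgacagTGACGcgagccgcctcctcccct
Atf3, 25 bases up to the start, chr1:191183334-191183358, minus strand, with CGTCA, the core on the opposite strand, from base -7: aagctattaatagcattaCGTCAgc

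The values are linear probe-set intensities as deposited, and the 3 arrays had median intensities over 28856 probe sets of 219.8 (tumor), 226.7 (high doxycycline) and 250.02 (control). With 1 array per group there is no replicate check and no test, and precision is limited by how few arrays there are. Genes of tissue cell types go against the labels, since they were bright on the array labelled control, a culture, and mostly dim on the array labelled tumor, a tissue. The summed intensity of 10 macrophage markers was 1219 on tumor, 2237 on high doxycycline and 24180 on control, with 1, 2 and 9 of the 10 above the array median. That of 6 endothelial markers was 702, 785 and 6900 (0, 0 and 5 of 6 above the median), that of 8 skeletal muscle markers 2058, 2074 and 24056 (4, 5 and 8 of 8), and that of 6 fibroblast and matrix markers 1832, 1444 and 42691 (5, 5 and 6 of 6), in the same array order. No marker had a value of 0. Every direction below is therefore one between labelled arrays. Whether the labels tumor and control were exchanged was not tested. If they were, tumor against high doxycycline would be the comparison of cultures without and with doxycycline, and high doxycycline against control would set culture against tumor tissue. The comparison of tumor with high doxycycline does not use the array labelled control. The log2 values of tumor and high doxycycline correlated at 0.991 (Pearson) over all probe sets, a description since probe sets share an array, against 0.917 for tumor and control and 0.928 for high doxycycline and control. On tumor and high doxycycline 34.6% of probe sets held exactly equal values, but 0 of the 9 AP-1 probe sets did so in any pair of arrays.

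**Figure D1:**
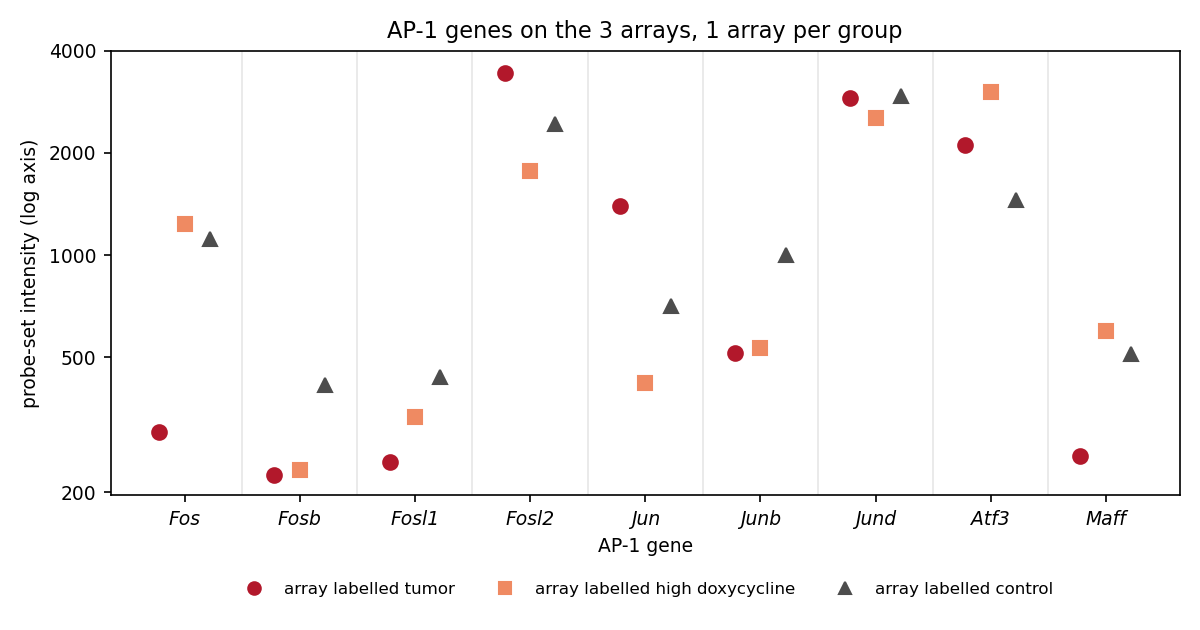
Probe-set intensity (log axis) of each AP-1 gene on the arrays labelled tumor (red circles), high doxycycline (orange squares) and control (grey triangles), 1 array per group and so no error bars. Within each gene the symbols show that Fos, Maff, Fosl1, Fosb and Junb were lowest on tumor, with Fosb and Junb only slightly below high doxycycline. Jun and Fosl2 were highest on tumor, and Atf3, Fos and Maff were highest on high doxycycline. Heights of different genes cannot be compared.

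Within the Fos family, the genes took different orders over the arrays. Fos had intensities of 302 on tumor, 1234 on high doxycycline and 1114 on control, so that the array labelled tumor stood apart and the other two lay close together. On tumor, Fos lay 0.46 above the array median on the log2 scale, against 2.44 above it on high doxycycline and 2.15 on control. Fosl2, which encodes Fra-2, went the other way, with 3433 on tumor, 1773 on high doxycycline and 2436 on control. Fosl1, which encodes Fra-1, had 247 on tumor, 333 on high doxycycline and 439 on control, an order of arrays unlike that of Fosl2. Fosb had 225 on tumor, 232 on high doxycycline and 415 on control. On tumor and high doxycycline Fosb was at the level of the array median (0.03 and 0.04 above it on the log2 scale), where a dim gene and the background of the array are hard to separate.

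The Jun genes also differed among themselves. Jun, the founding partner of Fos in AP-1, had 1396 on tumor, 421 on high doxycycline and 710 on control. It was thus highest on the array on which Fos was lowest. Junb had 515 on tumor, 535 on high doxycycline and 1004 on control, with tumor and high doxycycline nearly equal. Jund, the Jun gene that is broadly expressed in unstimulated cells, varied least of the 9 genes over the arrays, with 2912 on tumor, 2539 on high doxycycline and 2939 on control. Atf3 had 2109 on tumor, 3033 on high doxycycline and 1454 on control, and was the member with high doxycycline highest and control lowest. Maff had 256 on tumor, 598 on high doxycycline and 511 on control, the same order of arrays as Fos. On tumor, Maff lay only 0.22 above the array median on the log2 scale, where signal and background are hard to separate.

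The comparison of tumor with high doxycycline sets apart 3 of the 9 genes. Differences are given as log2(intensity + 1) on the array named first minus that on the other, so that folds of dim genes are understated, and a gene counts as bright where the brighter array of the pair lies above its array median. All 9 genes were bright in each comparison. Fos was 4.07-fold dimmer on tumor than on high doxycycline (log2 difference -2.03), Maff was 2.33-fold dimmer (-1.22) and Jun was 3.31-fold brighter (1.73). Fosl2 came just short of the 2-fold limit at 1.94-fold brighter (0.95). Of the rest, Atf3 (-0.52) and Fosl1 (-0.43) were dimmer by less than 1.5-fold, Jund was brighter by 0.20, and Junb and Fosb differed by about -0.05 each. By count, 2 of 9 genes were at least 2-fold dimmer and 1 of 9 was at least 2-fold brighter. Over all 11212 bright genes, 1.94% were at least 2-fold dimmer and 1.58% at least 2-fold brighter. The median difference was -0.06 over the 9 genes and 0.00 over all bright genes. Only 27 of the 11212 genes, Fos included, had a difference as low as that of Fos, and 30, Jun included, had one as high as that of Jun. Because the 9 genes were chosen with earlier results of these data known, their counts and ranks are a description.

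For scale, probe sets of the same gene disagreed about their difference between tumor and high doxycycline by a median of 0.06 on the log2 scale over 649 genes, with percentile 95 at 0.46. Without probe sets of equal values on both arrays these were 0.07 and 0.52 over 465 genes. The differences of Fos, Jun, Maff and Fosl2 exceeded both percentiles clearly and that of Atf3 barely, while those of Fosl1, Jund, Junb and Fosb lay below both. This disagreement is between probe sets on the same arrays and leaves out the spread between samples. The summed levels of the endothelial and muscle markers given above were alike on these arrays, and that of the matrix markers was higher on tumor. On each array 5 of 6 matrix markers lay above the array median, as did 4 (tumor) or 5 (high doxycycline) of 8 muscle markers. Single markers differed within these sums. The muscle marker Mb had 754 on tumor and 378 on high doxycycline, and Pvalb had 224 and 464. The other muscle markers were slightly dimmer on tumor. The matrix markers Dcn (491 and 267) and Sparc (398 and 243) were brighter on tumor. Col1a1 (332 and 343) and Col1a2 (270 and 302) were slightly dimmer there. The macrophage sum was lower on tumor, mostly through the receptor gene Cd14, which had 158 on tumor and 914 on high doxycycline. Of the 10 macrophage markers, only Cd14 was at least 2-fold apart. Others, such as Lyz2 (65 and 68) and C1qa (168 and 188), lay below the array median on both arrays. Cd14 was also the only marker of this list that was brighter on high doxycycline than on control (650). In bulk RNA, fewer cells of a type and less RNA per cell cannot be told apart.

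**Figure D2:**
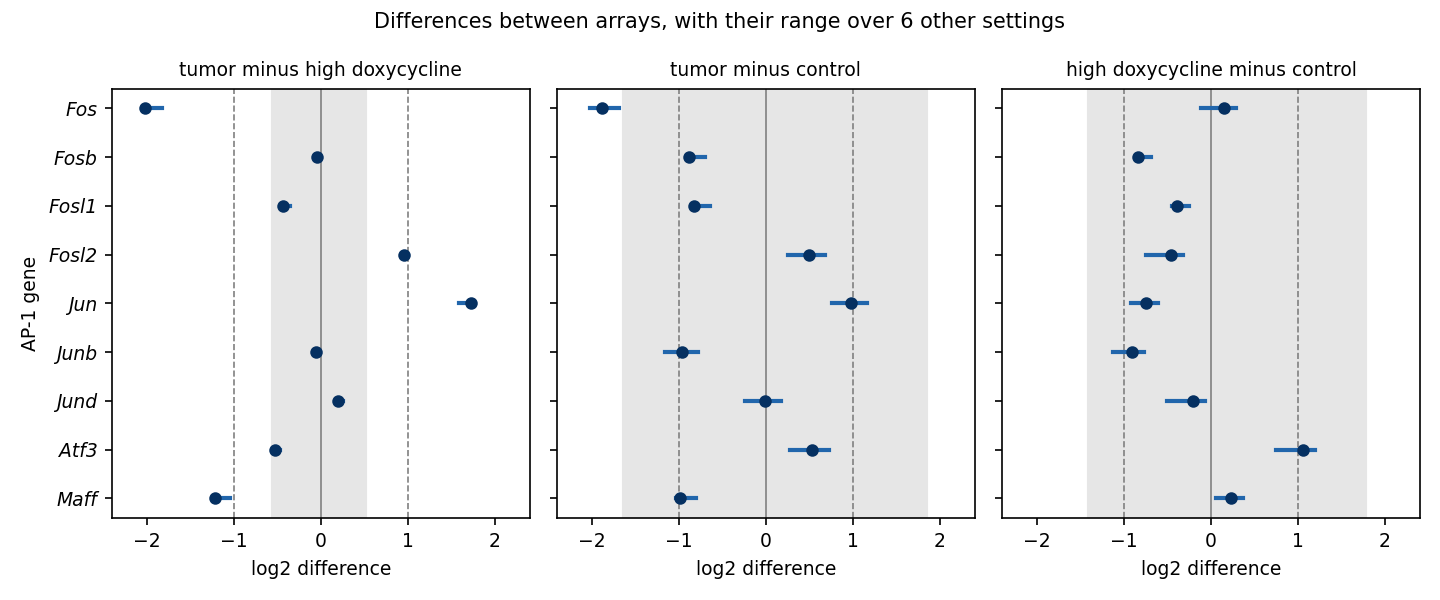
Log2 difference of each AP-1 gene between 2 arrays (points), with its range over 6 other scalings, pseudocounts and probe-set rules (blue lines), in 3 panels: tumor minus high doxycycline, tumor minus control, and high doxycycline minus control. Grey bands span percentiles 5 to 95 of all bright genes and dashed lines mark 2-fold; in the left panel Fos, Maff, Jun and Fosl2 lie outside the band (-0.56 to 0.53), in the middle panel only Fos does (band -1.65 to 1.86), and in the right panel no gene does (band -1.42 to 1.78).

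In the comparison of tumor with control, Fos was the gene that passed 2-fold, at 3.68-fold dimmer on tumor (-1.88). Maff (-0.99), Junb (-0.96), Fosb (-0.88) and Fosl1 (-0.83) were dimmer by between 1.78-fold and 1.99-fold. Jun was 1.97-fold brighter (0.97), Atf3 1.45-fold (0.54) and Fosl2 1.41-fold (0.49). Jund differed by -0.01, a sign that turned (0.17) with all arrays at a common median. By count, 1 of 9 genes was at least 2-fold dimmer and 0 of 9 were at least 2-fold brighter. Among 12010 bright genes these shares were 10.2% and 18.5%, so that the members' count lies near or below the background. The median was -0.83 over the 9 genes and 0.08 over all bright genes.

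In the comparison of high doxycycline with control, which by its labels asks what a day of doxycycline changes in culture, Fos differed by 0.15 on the log2 scale, and by -0.12 under quantile normalization. Atf3 was 2.08-fold brighter on high doxycycline (1.06). Maff was brighter by 0.23. The other 6 genes were dimmer on high doxycycline, led by Junb (-0.91), Fosb (-0.83) and Jun (-0.75), with Fosl2 at -0.46, Fosl1 at -0.40 and Jund at -0.21. By count, 1 of 9 genes was at least 2-fold brighter and 0 of 9 were at least 2-fold dimmer, where 17.4% and 8.45% of 11933 bright genes were. The median was -0.40 over the 9 genes and 0.08 over all bright genes. Both comparisons with control share that array and its tissue markers, whose part in these differences was not tested. The disagreement between probe sets was also larger there, with a median of 0.38 and percentile 95 of 1.996 for tumor against control and 0.37 and 1.99 for high doxycycline against control. No member exceeded those percentiles.

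Differences between genes within the family do not depend on a shift of a whole array. Relative to Jun, Fos was 13.5-fold lower on tumor than on high doxycycline (difference of the log2 differences -3.75) and 7.22-fold lower on tumor than on control (-2.85). Fos and Jun had the lowest and highest differences of the 9 genes in both comparisons. Their contrast is thus the widest among the members and restates values given above. Relative to Fosl2, Fos was 7.88-fold lower on tumor than on high doxycycline (-2.98) and 5.18-fold lower on tumor than on control (-2.37). Jun and Junb parted by 1.78 between tumor and high doxycycline and by 1.94 between tumor and control, with Jun the brighter on tumor in both. Between high doxycycline and control they parted by 0.16. Fosl2 and Fosl1 parted by 1.39 between tumor and high doxycycline, by 1.32 between tumor and control, and by -0.06 between high doxycycline and control. These values show unequal change, and do not show which gene of a pair changed.

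Set beside the promoter sequences, the genes with TGACG upstream had no common size of difference. Between tumor and high doxycycline all 5 had negative differences, but only those of Fos and Maff passed 2-fold, Atf3 was 1.44-fold dimmer, and Fosb and Junb were within 1.04-fold. With arrays at a common median, Fosb and Junb differed by -0.004 and -0.011, so that their sign carries little information. The 3 genes whose windows lacked TGACG (Jun, Fosl2 and Jund) were brighter on tumor than on high doxycycline, Jund by 1.15-fold. Of these, the window of Jun held the related TGACATCA. Between high doxycycline and control, the genes with TGACG ran from -0.91 (Junb) to 1.06 (Atf3), and the genes without it from -0.75 (Jun) to -0.21 (Jund). Promoters were examined after these values were known, and 8 genes allow no test.

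The genes whose pattern over the 3 arrays was nearest to that of Fos were found by the distance between mean-centred log2 values, among 11591 genes that were bright on at least 1 array. The 5 nearest were Iqgap2, which encodes a scaffold protein of the IQGAP family (distance 0.19), Dnase1l3, a secreted DNase gene (0.22), the MiT-family factor gene Tfec (0.25), the kinase gene Stk32c (0.25) and the proliferation marker gene Mki67 (0.28). Iqgap2, for example, had 544 on tumor, 2173 on high doxycycline and 1695 on control, and Mki67 had 90.2, 285 and 319 on the same arrays. On tumor, Mki67 and Tfec (119) lay below the array median of 219.8, where signal and background are hard to separate. Both thus counted as bright through the arrays on which they were higher. The family member nearest to Fos was Maff (0.69) and the farthest was Jun (2.77). Nearest to Jun were the coronin gene Coro6 (0.14), the epoxide hydrolase gene Ephx1 (0.14), Phyhip (0.18), the kelch-like gene Klhl38 (0.18) and the retinol uptake receptor gene Stra6 (0.20). Ephx1 had 3330 on tumor, 1004 on high doxycycline and 1502 on control. Klhl38 lay below the array median on high doxycycline (207 against 226.7). The family member nearest to Jun was Fosl2 (0.55). With 3 arrays, closeness of patterns is a description and many genes lie close by.

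**Figure D3:**
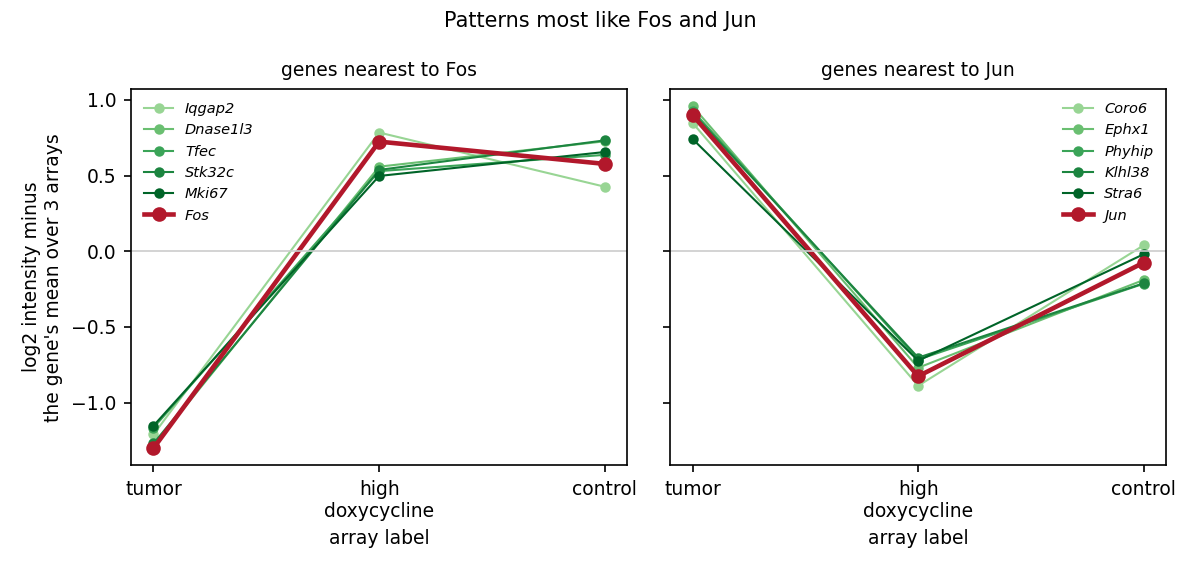
Log2 intensity minus the gene's own mean over the 3 arrays (vertical axis) on the arrays labelled tumor, high doxycycline and control, for Fos (left, red) and Jun (right, red) with the 5 genes nearest to each (green). The Fos group dips on tumor and is level on the other arrays, while the Jun group peaks on tumor and is lowest on high doxycycline.

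Other basic leucine zipper genes, some of which pair with Fos or Jun proteins, lay within 2-fold between tumor and high doxycycline. Of 22 listed, 21 were measured and 16 were bright in that pair, and 0 of 16 differed by 2-fold, with a median of 0.00. On these 2 arrays 7 of the 21 held exactly equal values, as did 34.6% of all probe sets. With 1.94% of all bright genes dimmer and 1.58% brighter, a count of 0 in a list of this size is near the background. The widest was Batf3, a partner of Jun proteins in dendritic cells and T cells, with 382 on tumor and 656 on high doxycycline. Between tumor and control 4 of 17 were at least 2-fold dimmer, namely Batf3 (-2.38), Bach1 (-1.45), which encodes a partner of small Maf proteins, Cebpb (-1.31), which encodes a C/EBP factor, and Bach2 (-1.27), a relative of Bach1. The fifth, Atf2, a Jun partner, was 2.35-fold brighter on tumor (1779 against 755). The shares over all bright genes were 10.2% dimmer and 18.5% brighter. Between high doxycycline and control Batf3 was dimmer (-1.60) and Atf2 brighter (1.10), the only 2 of 17, beside 8.45% dimmer and 17.4% brighter over all bright genes. Under quantile normalization 5 were dimmer and 0 brighter in that comparison. The medians were -0.29 and -0.18 in these comparisons. The macrophage and other tissue markers of the array labelled control were far brighter than on the other arrays, and their part in the values of Batf3, Bach1, Bach2 and Cebpb was not tested. Of the 21 genes, 3 held equal values on all 3 arrays (Mafa, Nrl and Mafg, a small Maf gene like Maff), as did 15% of all probe sets.

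Kinases and factors that act on Fos and Jun also lay within 2-fold between tumor and high doxycycline, with 0 of 19 at least 2-fold apart, a count near the background of 1.94% dimmer and 1.58% brighter. The widest was Rps6ka5, which encodes the kinase MSK1 that phosphorylates CREB, ATF1 and histone H3, with 576 on tumor, 308 on high doxycycline and 165 on control. The serum response factor gene Srf had equal values of 640 on tumor and high doxycycline, and the JNK kinase gene Mapk8 had 1204 and 1404. Srf was 1 of 4 genes among the 19 with exactly equal values on these 2 arrays. Between tumor and control 5 of 19 were at least 2-fold brighter and 1 dimmer, near the 18.5% and 10.2% of all bright genes. They were Mapk10, the neuronal JNK gene (2.97), Rps6ka5 (1.80), the RSK2 gene Rps6ka3 (1.54), the ERK kinase gene Map2k1 (1.35), the JNK activator gene Map2k4 (1.03) and, dimmer, the p38 activator gene Map2k3 (-1.43). Rps6ka5 lay below the array median on control. Among the 18 genes above the median on both arrays, 4 were at least 2-fold brighter and 1 dimmer. For Mapk10, 2 probe sets disagreed, and their mean difference was 1.54. Between high doxycycline and control 4 were brighter and 1 dimmer, near the 17.4% and 8.45% of all bright genes, with Mapk10 at 2.88 (mean of probe sets 1.49), Map2k1 at 1.31, Map2k4 at 1.14, Rps6ka3 at 1.12 and Map2k3 at -1.20. Medians were 0.00 for tumor against high doxycycline, 0.09 for tumor against control and 0.21 for high doxycycline against control. Of 8 bright genes for turnover and cofactors of Fos and Jun proteins, 0 differed by 2-fold between tumor and high doxycycline, again near the background of 1.94% and 1.58%. Of the 9 measured genes of that list, 4 held exactly equal values on these 2 arrays. Cop1, which encodes a ubiquitin ligase for Jun, was brighter than on control on both other arrays, with 1680 on tumor, 1503 on high doxycycline and 686 on control, and was the single such gene of 8 in those comparisons, where 18.5% and 17.4% of all bright genes were brighter. Its difference between high doxycycline and control was under 2-fold under quantile normalization.

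Genes known as AP-1 targets had 4 of 16 bright members at least 2-fold dimmer on tumor than on high doxycycline and 0 brighter, beside 1.94% and 1.58% of all bright genes. Of these 4, Plau lay below the array median on tumor, and among the 14 members above the median on both arrays 3 were dimmer. The follistatin gene Fst had 1476 on tumor, 6011 on high doxycycline and 3654 on control. The haem oxygenase gene Hmox1 had 773 on tumor, 2562 on high doxycycline and 3295 on control. The urokinase gene Plau had 172, 439 and 3237, and the EGF-receptor ligand gene Hbegf had 471, 1018 and 824, in the same array order. All 4 were lowest on tumor, which follows in part from their choice as genes dimmer on tumor than on high doxycycline. Fst and Hbegf were highest on high doxycycline, and Hmox1 and Plau were highest on control. The list median was -0.09, close to the 0.00 of all bright genes, and the other 12 lay within 2-fold. The list was compiled with earlier results of these data known, and its count is a description.

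Against control, many genes of this target list were dimmer on both other arrays. Of 23 bright members, 14 were at least 2-fold dimmer on tumor (median -1.31) and 11 on high doxycycline (median -0.99), and 0 were brighter in either comparison. Over all bright genes 10.2% were dimmer and 18.5% brighter on tumor, 8.45% dimmer and 17.4% brighter on high doxycycline, and both medians were 0.08. Of the 23, however, 9 on tumor and 7 on high doxycycline lay above the array median on control alone, so that they entered the count through the array on which they were high. Among the members above the median on both arrays, 7 of 14 were at least 2-fold dimmer on tumor and 6 of 16 on high doxycycline. The 4 widest differences were those of Plau (values above), Mmp3, Mmp9 and Tnc in both comparisons. The stromelysin gene Mmp3 had 70.1 on tumor, 83.1 on high doxycycline and 816 on control, the gelatinase gene Mmp9 130, 149 and 1250, and the matrix gene Tnc 295, 251 and 2797 in that order. Plau on tumor, and Mmp3 and Mmp9 on tumor and high doxycycline, lay below the array median, so their folds depend on values with little signal over background. Several of these, such as Mmp9, Plau and Tnc, are also expressed by macrophages or connective tissue cells. All 6 fibroblast and matrix markers given above were at least 2-fold dimmer on tumor and on high doxycycline than on control. Of 9 bright macrophage markers, 9 were so on tumor and 8 on high doxycycline, beside 10.2% and 8.45% of all bright genes. Only 1 (tumor) and 2 (high doxycycline) of the 10 listed macrophage markers lay above the array median, against 9 on control. Most of them thus entered the count through control, the array on which they were high. The part of these marker lists in the values of the target list was not tested.

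**Figure D4:**
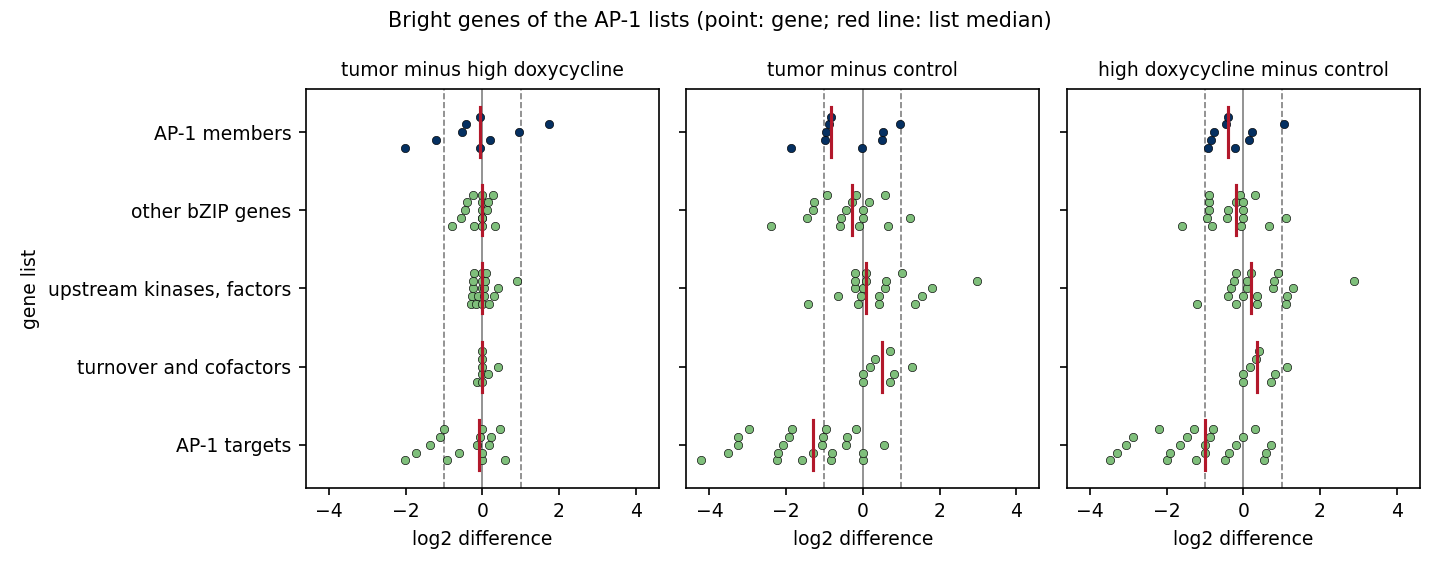
Log2 differences of the bright members of each gene list (points) and the list median (red line) for tumor minus high doxycycline, tumor minus control and high doxycycline minus control, with dashed lines at 2-fold. In the left panel all bright genes of the bZIP, upstream and turnover lists lie within 2-fold while 3 of the 9 AP-1 members and 4 of the 16 target genes lie beyond it; in the middle and right panels the target list is shifted to the left, with medians of -1.31 and -0.99.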

How the data were processed

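Total RNA of 3 samples was hybridised, after biotin labelling, to 1 array each, per the labels. The authors deposited linear intensities, 1 per probe set; their background correction and normalization are not stated in the labels. From these, log2(intensity + 1) was computed with Python 3.11.15 and pandas 2.3.3. The platform annotation gives 21789 of 28856 probe sets 1 symbol, 1621 several and 5446 none; probe sets with several or none were left out. By Entrez number 21698 matched a RefSeq table. Where a gene had several probe sets (999 genes), its brightest on average stood for it.

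A gene was bright in a comparison where the brighter array lay above its median. Calls are descriptive and take 2-fold, without any test. Members and lists were chosen with earlier results of these data known. Named genes are all members, up to 4 genes per list and comparison that differ by 2-fold, and the 5 nearest to Fos and Jun. Other named genes were chosen after their values were seen. They are the named markers, Srf, Mapk8, Mafa, Mafg, Nrl, those below 2-fold and the remaining called genes of the bZIP and upstream lists. Promoters were matched by Entrez number. Alternatives were another scaling, pseudocount, probe-set rule, brightness filter or fold limit.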

Additional observations from a re-analysis of the deposited data

How the results depend on the processing

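Of 27 differences (9 genes in 3 comparisons), 25 kept their sign under all 6 alternatives of scaling, pseudocount and probe-set rule, and 21 kept their side of 2-fold. Since each gene has 1 probe set, the 2 probe-set rules could not change a value, and this rests on the other 4 alternatives. The exceptions in sign were Jund between tumor and control (-0.24 to 0.17) and Fos between high doxycycline and control (-0.12 to 0.29). Between tumor and high doxycycline, Fos ranged from -2.03 to -1.83, Jun from 1.59 to 1.77 and Maff from -1.22 to -1.05. Between tumor and control, Fos ranged from -2.02 to -1.69.

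With arrays shifted to a common median, 1 gene (Jun, 1.16) was at least 2-fold brighter on tumor than on control, against 0. Under quantile normalization 2 genes were brighter on tumor than on high doxycycline (Fosl2 reached 1.004), 3 were dimmer on tumor than on control (with Junb and Maff), and between high doxycycline and control 0 were brighter (Atf3 at 0.75) and 1 was dimmer (Junb at -1.12). With the filter at percentile 75, 1 gene (Fos) was dimmer on tumor than on high doxycycline, since Maff no longer counted as bright. At a 1.5-fold limit, 2 were brighter on tumor than on high doxycycline, 1 brighter and 5 dimmer on tumor than on control, and 3 dimmer on high doxycycline than on control. At a 3-fold limit, 1 was dimmer on tumor than on high doxycycline and 0 were brighter on high doxycycline than on control. No paired analysis was possible because each group has 1 array, and for that reason no replicate could be left out. Among the gene lists, counts moved by over 1.5 times for high doxycycline against control under quantile normalization (other bZIP genes 0 brighter and 5 dimmer, turnover genes 0 brighter) and with the filter at percentile 75 (targets 7 dimmer), and over single-probe-set genes, where Cop1 drops out. The 1.5-fold and 3-fold limits shift list counts by construction. Genes near the array median, such as Fosb and, on tumor, Fosl1 and Maff, have little signal over background.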
